A study of Homo sapiens with 9 samples.

Results

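The nuclear-encoded genes of the respiratory chain and of ATP synthase were followed through a Chrom-seq experiment, which captures RNA lying close to a chosen chromatin mark. Members were the protein-coding entries outside the mitochondrial chromosome whose symbol begins with NDUFA, NDUFB, NDUFC, NDUFS or NDUFV and a digit, is SDHA, SDHB, SDHC or SDHD, or begins with UQCR, COX followed by a digit from 4 to 8, or ATP5 and a letter. Of the 57820 genes in the count table, 93 entries under 89 symbols fit this description. By symbol, 41 belonged to complex I, 5 to complex II, 9 to complex III, 18 to complex IV and 20 to complex V. The symbols NDUFB8, NDUFA7, SDHD and UQCR11 each stand for 2 entries.

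All 9 libraries came from HEK293T, an established human embryonic kidney line, in 3 groups of 3, and the descriptions mark the constructs of all 3 groups as NLS. In every group the cells carried the peroxidase APEX2 fused to an antibody fragment that docks on a SunTag array. In the CBX1 group the array was joined to the mouse CBX1 chromodomain, the module by which a heterochromatin protein reads H3K9me3. The CBX1_W42A group had the same construct with W42A, a change of one residue of the chromodomain. The 10×SunTag array of the Control group carried no reader. A value in CBX1 against Control is thus the capture with the reader relative to capture without one, and not a measure of expression. No unenriched RNA of the 3 groups was used here, so a different RNA level and a different capture cannot be told apart. In these bulk libraries, capture from more cells and more capture per cell cannot be told apart. All 3 groups were labelled alike, 48 hours after transfection. Biotin-aniline was added at 500 μM for 30 min and then hydrogen peroxide at 1 mM for 1 min. The CBX1_W42A samples are numbered apart from the other groups, and their descriptions do not say whether all were made at one time. In comparisons with them, a difference in time could not be told apart from the construct. The study calls the replicates independent, and neither it nor the labels say whether they were separate transfections, so the p-values measure the spread between these libraries.

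Complex I takes electrons from NADH, complex II from succinate, and both pass them through ubiquinone to complex III, from which cytochrome c carries them to oxygen at complex IV. The protons pumped on the way drive ATP synthase, also called complex V. Most subunits are encoded in the nucleus and made in the cytosol, whereas a small core of complexes I, III, IV and V is encoded by mitochondrial DNA, and the catalytic nuclear subunits are generally larger than the accessory ones that surround them.

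The total count per library lay between 8379542 and 11082852. Of 5 markers of the line, VIM, NEFM, NEFL, INA and PAX2 were all counted in every library, from 36 counts upward. CD3E was at 0 in every library, PTPRC had at most 2 counts, ALB 4 to 25 and GFAP 15 to 60, with mean CPM (library-scaled counts on the usual CPM scale, with TMM factors) of at most 1.98 for ALB and 4.03 for GFAP in any group. The share of counts in genes other than protein coding was 3.24% ± 0.175 (SD, n = 3) in Control, 4.44% ± 0.128 with CBX1 and 4.06% ± 0.0958 with CBX1_W42A.

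Of the 93 members, 65 had more than 1000 counts over the 9 libraries and are called abundant here. NDUFA4L2 had 114, a further 17 entries had 1 to 104, and 10 had 0. Most of the members with few counts share their span with another gene on the same strand, and the counts appear to leave out read pairs that lie in both. Of the 38 members with such an overlap, 17 had less than 10% of their span to themselves, and none of these had more than 30 counts. COX8A, a small subunit of complex IV, lay with 0.7% of its span free under AP000721.4 and had 0 counts. COX6A1 had 2 counts in all, NDUFA9 1, and NDUFV2, a catalytic subunit of complex I, 17. NDUFA11 had 30 counts, NDUFA13 19, NDUFC2 10 and ATP5J2 7. The 2 entries of NDUFB8 had 14 and 0, those of NDUFA7 20 and 0, those of UQCR11 77 and 0, and those of SDHD, the membrane anchor of complex II, 93 and 2. These low counts cannot be read as low RNA.

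The isoforms known from restricted tissues formed another low group, mostly without an overlap. COX4I2, COX6A2, COX7B2 and COX8C had 0 counts in every library, although COX8C lies wholly under UNC79. COX7A1, the heart and muscle isoform, had 5 counts in all. COX6B2, the testis isoform, had 18, 7 and 6 counts in Control, 11, 6 and 13 with CBX1, and 15, 10 and 18 with CBX1_W42A. NDUFA4L2 had 14, 10 and 4, then 17, 9 and 17, then 11, 22 and 10. The ranges of the 3 groups overlapped for both genes. UQCRHL was not analysed here.

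Respiratory genes are known for shared regulatory sites near their starts, so the promoters of the members were read. The promoter windows came from RefSeq on GRCh38.p14, a later build than the hg19 of the counts, and run from 250 bases before to 50 after the start of a gene, 300 in all. A window was found for 68 of the 93 members and for 53 of the 65 abundant ones. The motif of NRF1, the factor long tied to respiratory genes, was searched as CGCATGCG, which reads the same on both strands. It stood in 8 of the 53 windows (15.1%), against 2.93% of 15000 promoters of protein-coding genes and 2.19% of all 27305 promoters. The YY1 motif AAGATGGCG or CGCCATCTT stood in 11.3% against 2.84% of protein-coding and 1.85% of all promoters, and the ETS motif CCGGAAGT or ACTTCCGG, bound by GABP, in 9.43% against 6.34% and 4.44%. The Sp1 motif GGGCGG or CCGCCC was in 58.5% against 59.7% and 44.6%. Both strands were searched, overlapping matches were each counted, and a match is a string of letters, not a shown binding site. Over all 68 windows the shares were 14.7% for NRF1, 11.8% for YY1, 13.2% for ETS and 58.8% for Sp1. The 8 NRF1 matches in abundant members all fell in genes of complexes I and V. Their first base lay 3 to 158 bases before the start. They are shown with 10 bases on either side, 5′ to 3′ on the strand of the gene, with the motif in capitals, from the nearest to the farthest from the start.
NDUFA8 (chr9:122159765-122159792, minus strand): ttgccggatgCGCATGCGcaggcgccgt
ATP5C1 (chr10:7788146-7788173, plus strand): ggagcttcggCGCATGCGcgctgaggcc
ATP5G2 (chr12:53676107-53676134, minus strand): gcccgggtcaCGCATGCGctgagccttc
NDUFS6 (chr5:1801352-1801379, plus strand): agaagccgtgCGCATGCGttagcgctaa
NDUFS7 (chr19:1383823-1383850, plus strand): ttccggtttcCGCATGCGctccgagccg
ATP5I (chr4:674336-674363, minus strand): ccgctgacggCGCATGCGtgcgcccagc
ATP5J (chr21:25735156-25735183, minus strand): actcaaagagCGCATGCGtacagagcaa
NDUFB4 (chr3:120596168-120596195, plus strand): gagcacttcgCGCATGCGcatatcaccg

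The stretch from 120 bases before to 30 after the start is shown for the members that passed the test in one of the comparisons below, with any of the 4 motifs in capitals. The first 4 genes were higher with CBX1, in one comparison or the other.
COX7C (chr5:86617821-86617970, plus strand): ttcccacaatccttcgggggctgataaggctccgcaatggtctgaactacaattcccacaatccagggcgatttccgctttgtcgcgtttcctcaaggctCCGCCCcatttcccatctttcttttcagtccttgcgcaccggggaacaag
UQCRH (chr1:46303578-46303727, plus strand): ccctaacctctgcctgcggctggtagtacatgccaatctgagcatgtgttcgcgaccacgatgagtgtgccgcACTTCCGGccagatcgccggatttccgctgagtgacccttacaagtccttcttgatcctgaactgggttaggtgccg
COX7A2 (chr6:75250269-75250418, minus strand): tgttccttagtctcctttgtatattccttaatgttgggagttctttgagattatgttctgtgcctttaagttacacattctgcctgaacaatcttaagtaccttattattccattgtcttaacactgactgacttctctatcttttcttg
NDUFB6 (chr9:32573130-32573279, minus strand): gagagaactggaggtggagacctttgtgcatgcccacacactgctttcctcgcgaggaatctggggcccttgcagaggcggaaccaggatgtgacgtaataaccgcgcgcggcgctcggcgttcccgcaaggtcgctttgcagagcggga
The next 4 were lower with CBX1 than in Control.
NDUFS1 (chr2:206159415-206159564, minus strand): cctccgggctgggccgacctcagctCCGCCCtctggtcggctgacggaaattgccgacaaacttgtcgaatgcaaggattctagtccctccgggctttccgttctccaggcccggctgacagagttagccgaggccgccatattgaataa
UQCRFS1 (chr19:29213122-29213271, minus strand): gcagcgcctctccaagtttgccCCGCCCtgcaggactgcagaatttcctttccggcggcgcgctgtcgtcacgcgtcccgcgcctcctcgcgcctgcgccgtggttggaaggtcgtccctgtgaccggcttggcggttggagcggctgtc
ATP5A1 (chr18:46104198-46104347, minus strand): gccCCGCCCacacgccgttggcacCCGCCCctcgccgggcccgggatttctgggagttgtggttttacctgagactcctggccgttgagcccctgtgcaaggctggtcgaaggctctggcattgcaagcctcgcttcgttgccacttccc
ATP5SL (chr19:41439508-41439657, minus strand): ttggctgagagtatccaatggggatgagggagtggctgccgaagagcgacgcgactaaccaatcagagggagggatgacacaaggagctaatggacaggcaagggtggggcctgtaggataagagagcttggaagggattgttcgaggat
In the higher genes the capitals mark an Sp1 match in COX7C and an ETS match in UQCRH, and COX7A2 and NDUFB6 had none in this stretch. In the lower genes they mark Sp1 matches in NDUFS1, UQCRFS1 and ATP5A1, and none in ATP5SL.

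Levels were compared between genes per kb of transcript, using the median length of the annotated transcripts. The highest levels over the 9 libraries were those of NDUFB10, an accessory subunit of complex I, at 609 CPM per kb. COX4I1 followed at 376, COX7C at 365, COX5A at 350 and UQCRQ at 314. ATP5B, the catalytic beta subunit of ATP synthase, stood at 287 CPM per kb and SDHA, the flavoprotein of complex II, at 242. At the low end of the abundant members were NDUFV3 at 13.3 and ATP5S at 5.66 CPM per kb. The length listed with every gene in the table is its whole span, so intronic read pairs may be included and this order is approximate.

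CBX1 against Control asks which of these RNAs were captured more, or less, with the H3K9me3 reader. Few passed the test and those that did moved by small amounts. The NDUFB6 and COX7A2 RNAs, both of small subunits, were higher with CBX1, and those of UQCRFS1, ATP5A1, ATP5SL and NDUFS1 were lower. Of 71 members tested, 2 (2.82%) rose and 4 (5.63%) fell at an adjusted p below 0.05 in edgeR's quasi-likelihood test, against 10.6% of all 18837 genes higher and 9.46% lower. None reached a log2 fold change of 0.75 in addition, the study's threshold, which 7.06% of all genes passed upward and 0.34% downward. Of 14405 protein-coding genes tested, 1212 were higher and 1749 lower, with 686 and 53 also past that threshold. DESeq2 also found none past that threshold, and at an unadjusted p below 0.05 there were 18 members, against 34.2% of all genes. Over the members the median log2 fold change was 0.05 (44 of 71 above 0), that of all genes 0.03 and that of protein-coding genes -0.04. The sign of the members' median was not stable, since it ran from -0.126 to 0.135 over the alternatives.

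NDUFB6 (hg19 chr9:32552997-32573160, minus strand), an accessory subunit in the membrane arm of complex I, had 16.3, 24.5 and 20.1 CPM in Control and 30.8, 25.3 and 29.0 with CBX1. The CBX1 libraries all lay above the Control libraries. Its log2 fold change was 0.51 ± 0.15 (SE), with an adjusted p of 0.0214. COX7A2 (chr6:75947391-75960039, minus strand), the widely expressed isoform of a small complex IV subunit, had 16.7, 24.2 and 20.0 CPM in Control and 36.8, 21.2 and 31.4 with CBX1. CBX1 replicate 2 fell inside the Control range, so the groups overlapped. The log2 fold change was 0.59 ± 0.18 (SE) with an adjusted p of 0.0282 in edgeR. Neither gene passed when CBX1 replicate 1 or 3 or Control replicate 1 or 3 was left out, with adjusted p up to 0.098 for NDUFB6 and 0.151 for COX7A2, nor when the trend with transcript length over all genes was removed (0.0923 and 0.485).

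The genes that fell have coding sequences of 771 to 2181 bases, against 249 for COX7A2 and 384 for NDUFB6. ATP5A1 (chr18:43664110-43684300, minus strand), the alpha subunit of the F1 head of ATP synthase, had 232, 250 and 228 CPM in Control and 193, 184 and 187 with CBX1. The groups did not overlap, and the log2 fold change was -0.31 ± 0.09 (SE), with an adjusted p of 0.0206. UQCRFS1 (chr19:29698173-29704448, minus strand), the Rieske iron-sulfur protein of complex III, had 92.5, 88.3 and 98.5 CPM against 65.1, 70.1 and 80.4. The log2 fold change was -0.35 ± 0.10 (SE, adjusted p = 0.0238 in edgeR), again with no overlap. NDUFS1 (chr2:206979541-207024327, minus strand), the largest subunit of complex I and a carrier of its iron-sulfur clusters, had 123, 137 and 124 CPM against 107, 104 and 101. Its log2 fold change was -0.27 ± 0.09 (SE, adjusted p = 0.043 in edgeR).

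ATP5SL (chr19:41937223-41946622, minus strand) matched by its older symbol but is known as DMAC2, an assembly protein of complex I and not a subunit of ATP synthase. It had 59.6, 54.8 and 53.7 CPM in Control and 42.9, 44.1 and 46.9 with CBX1, without overlap, and a log2 fold change of -0.30 ± 0.10 (SE, adjusted p = 0.0383 in edgeR). None of the 4 lower genes passed when upper-quartile factors (adjusted p 0.0793 to 0.157) or the library size alone (0.081 to 0.162) replaced the TMM factors. NDUFS1 was also lost without a filter on low counts (0.0537), with edgeR's filterByExpr (0.0521) and with all 9 libraries in one fit (0.0947), UQCRFS1 with all 9 libraries (0.0533) and ATP5SL with DESeq2 (0.0527). The calls also depended on single libraries. ATP5A1 was lost without CBX1 replicate 2 or 3 (adjusted p up to 0.0794), UQCRFS1 without CBX1 replicate 1 or 2 or Control replicate 3 (up to 0.105), ATP5SL without any CBX1 library or Control replicate 1 or 3 (up to 0.118), and NDUFS1 without any of the 6 (0.0522 to 0.151). Over the 71 members, the CBX1 libraries lay all above Control for 3 (4.23%) and all below for 9 (12.7%), against 17.6% and 20.3% of all genes.

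**Figure D1:**
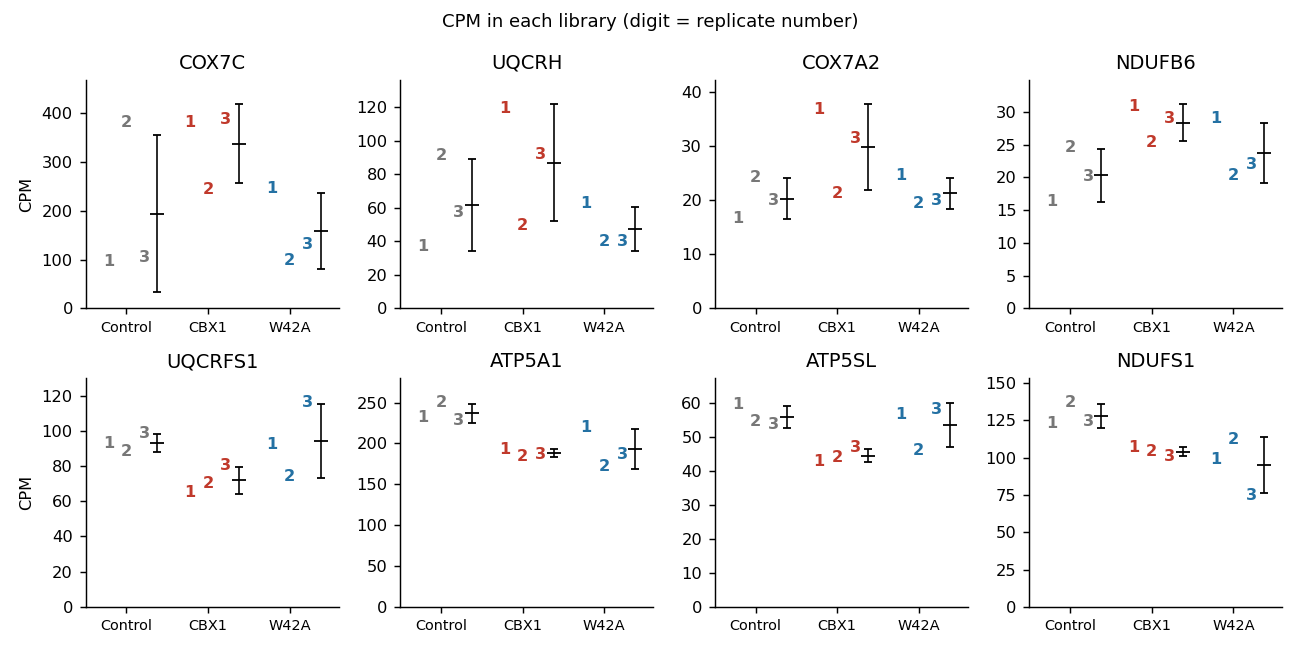
CPM (scaled by TMM factors, linear axis from 0) of the 8 members that passed the test in a comparison, in each of the 9 libraries. Digits are replicate numbers and black bars give the mean ± SD of a group. In the upper row Control replicate 2 and CBX1 replicate 2 lie inside the range of the other group in CBX1 against Control for COX7C, UQCRH and COX7A2, and in the lower row the CBX1 libraries of all 4 genes lie below the Control libraries.

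By role, the nuclear subunits of complex IV had the highest median. Of 9 tested, with NDUFA4 counted here for its place in that complex, 8 had a log2 fold change above 0, the median was 0.46, and COX7A2 passed. COX7C, another small subunit, had a log2 fold change of 0.82 ± 0.35 (SE) but an adjusted p of 0.102. Its CPM was 96.6, 380 and 105 in Control and 380, 243 and 386 with CBX1, so Control replicate 2 was as high as the CBX1 libraries. Without that library, COX7C had a log2 fold change of 1.76 and an adjusted p of 9.41e-07, and over all its alternatives the adjusted p ran from 1.51e-14 without a filter on low counts to 0.434 with DESeq2. COX7B stood at 0.60 ± 0.26 (SE, adjusted p = 0.108) and COX6B1 at 0.46 ± 0.18 (adjusted p = 0.0865), both in edgeR's test. COX4I1, the largest nuclear subunit, was at 0.08 and COX5A, the only member of this role below 0, at -0.15 on the log2 scale.

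The stalk and membrane subunits of ATP synthase followed with a median of 0.24, 7 of 9 above 0 and none past the test. ATP5L was at 0.38 ± 0.18 and ATP5I at 0.26 ± 0.12 (log2, SE), with adjusted p of 0.153 and 0.13 in edgeR. In the F1 head, 3 of 5 were above 0 with a median of 0.045, ATP5A1 fell, and ATP5B stood at -0.07 and ATP5D at 0.22. Of 24 accessory subunits of complex I tested, 17 were above 0, with a median of 0.05, and NDUFB6 rose. NDUFA2 was at 0.27 ± 0.11 (log2, SE, adjusted p = 0.102) and NDUFA10, another accessory subunit, at -0.24 ± 0.10 (adjusted p = 0.117), each without overlap of the groups. Of 6 subunits of its catalytic core, 2 were above 0, the median was -0.08, and NDUFS1 fell. NDUFV1, which binds NADH and the flavin, was at -0.15 ± 0.09 and NDUFS3 at -0.22 ± 0.11.

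Complex II was below 0 for each of its 3 abundant genes. SDHA had 646, 540 and 551 CPM in Control and 504, 495 and 486 with CBX1, a log2 fold change of -0.20 ± 0.09 (SE) with an adjusted p of 0.131 in edgeR. SDHB, the iron-sulfur subunit, had 75.5, 92.9 and 79.2 against 71.5, 59.3 and 69.0 (-0.28 ± 0.11, adjusted p = 0.0723), and SDHC, a membrane anchor, 56.2, 57.2 and 52.0 against 49.1, 50.2 and 60.4 (-0.02 ± 0.11). The groups did not overlap for SDHA and SDHB, and none of the 3 passed the test. In complex III, the core proteins and the Rieske protein were all below 0, with UQCRC1 at -0.12 ± 0.09, and the accessory UQCRH and UQCR10 stood at 0.52 ± 0.27 and 0.31 ± 0.18, neither past the test.

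**Figure D2:**
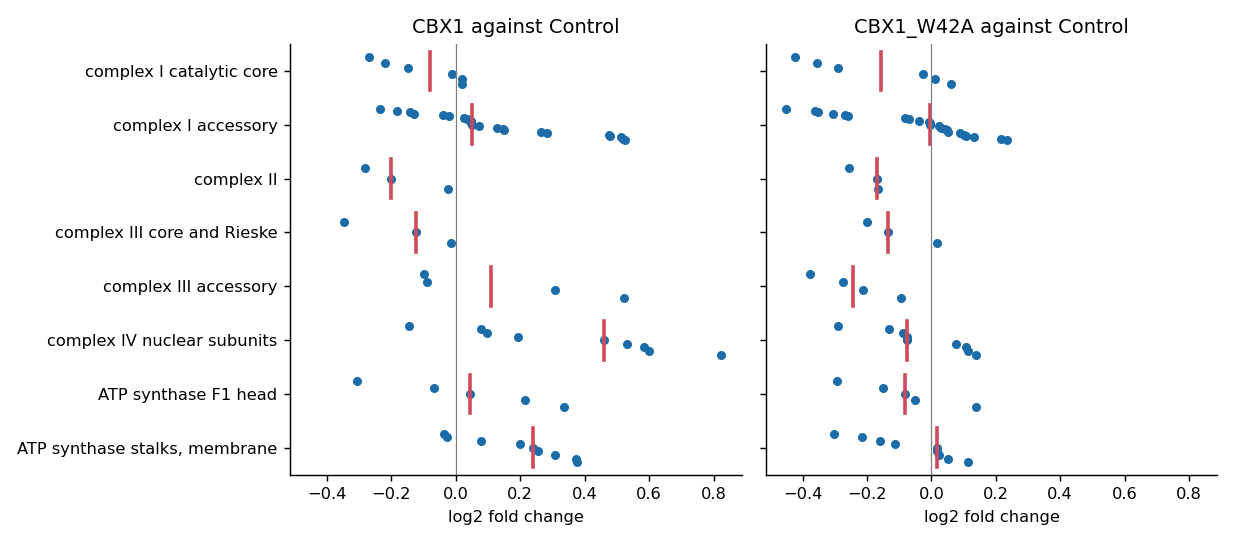
Log2 fold change (horizontal axis) of the abundant members by their role in the chain, one point per gene, with red bars at the median of the points. COX7A2L, ATP5S and ATP5SL, which have none of these roles, are not shown. The medians by role in the text also include tested members that are not abundant. With CBX1 the nuclear subunits of complex IV reach from COX5A at -0.15 to COX7C at 0.82, whereas with CBX1_W42A the same 9 genes lie between -0.29 and 0.14. Both panels use the same 3 Control libraries.

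CBX1_W42A against Control asks the same of the mutated reader, with the same Control libraries. None of the 72 members tested passed in edgeR, against 1.37% of all 18680 genes higher and 1.25% lower, and none passed in DESeq2. The share of all genes past the study's thresholds was 0.974% upward and 0.0214% downward. At an unadjusted p below 0.05 there were 8 members, against 19.3% of all genes. The members' log2 fold changes had a median of -0.06, with 30 of 72 above 0, against 0.01 over all genes. Protein-coding genes, as all members are, had a median of -0.03, with 6397 of 14350 above 0. The CBX1_W42A libraries lay all above Control for 1 member (1.39%) and all below for 7 (9.72%), against 12.0% and 12.5% of all genes.

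Among the members below 0 were several large subunits and some small ones. NDUFS1 had 98.7, 112 and 74.6 CPM with CBX1_W42A, below the Control libraries, with a log2 fold change of -0.42 ± 0.13 (SE) and an adjusted p of 0.0758. NDUFV1 was at -0.35 ± 0.12 (adjusted p = 0.12 in edgeR), with 128, 89.1 and 121 CPM against 140, 144 and 148 in Control. ATP5A1 was at -0.29 ± 0.11 (adjusted p = 0.145), with 220, 172 and 187 CPM, and SDHA at -0.26 ± 0.11 (adjusted p = 0.197), with 529, 433 and 492. For each of these 4 genes the groups did not overlap. The same held for NDUFA5, with only 348 coding bases, at -0.36 ± 0.13 (SE, adjusted p = 0.144 in edgeR). It also held for NDUFV3 at -0.305 ± 0.11 and NDUFA10 at -0.26 ± 0.10. The small subunits stood on either side of 0, with NDUFB6 at 0.23 ± 0.17, COX7A2 at 0.07 ± 0.16, COX7C at -0.29 ± 0.36, UQCRH at -0.38 ± 0.22 and NDUFS5 at -0.45 ± 0.29. By role, the median was -0.16 for the catalytic core of complex I, -0.17 for complex II, -0.21 for the accessory subunits of complex III, -0.08 for the nuclear subunits of complex IV and 0.02 for the stalk and membrane part of ATP synthase.

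CBX1 against CBX1_W42A compares the intact reader with its mutant directly, without the Control libraries. The small subunits COX7C and UQCRH were higher with CBX1 and none was lower. Of 71 members tested, 2 (2.82%) rose, both with a log2 fold change above 0.75, against 1.32% of all 19360 genes higher and 0.795% past both thresholds. None fell in edgeR, against 0.925% of all genes, and none fell in DESeq2. At an unadjusted p below 0.05 there were 18 members in either direction, against 16.6% of all genes. Over the members the median log2 fold change was 0.09 (51 of 71 above 0), and that of all genes 0.00. For protein-coding genes it was -0.02, with 6677 of 14593 above 0.

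COX7C (chr5:85913721-85916779, plus strand) had 380, 243 and 386 CPM with CBX1 and 246, 97.1 and 131 with CBX1_W42A. CBX1 replicate 2 and CBX1_W42A replicate 1 were nearly level, so the groups overlapped. The log2 fold change was 1.09 ± 0.22 (SE), with an adjusted p of 0.00911. UQCRH (chr1:46769303-46782448, plus strand), the hinge protein at the cytochrome c side of complex III, had 119, 49.7 and 91.9 CPM against 62.7, 39.8 and 39.8. Its log2 fold change was 0.87 ± 0.21 (SE), with an adjusted p of 0.0297 in edgeR. DESeq2 did not call either gene (adjusted p = 0.185 for COX7C and 0.278 for UQCRH), nor did the fit of all 9 libraries (0.111 and 0.0789), and UQCRH was also lost with the transcript length trend removed (0.0531). COX7C was lost without CBX1 replicate 3 or CBX1_W42A replicate 3 (adjusted p up to 0.0615), and UQCRH without CBX1 replicate 1 or 3 or CBX1_W42A replicate 2 or 3 (up to 0.219).

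Just short of the threshold was NDUFS5, an accessory subunit of complex I, with 195, 71.6 and 117 CPM with CBX1 and 102, 48.4 and 48.0 with CBX1_W42A. Its log2 fold change was 0.94 ± 0.26 (SE), with an adjusted p of 0.0542. NDUFS5 passed in 5 of 9 alternatives, among them RLE factors (adjusted p = 0.047), upper-quartile factors (0.0426) and the library size alone (0.035), but not in DESeq2 (0.402). ATP5H, a subunit of the ATP synthase stalk, was at 0.48 ± 0.13 (adjusted p = 0.0579) and was the single member that DESeq2 called in this comparison. UQCR10 was at 0.55 ± 0.16 (0.0753) and ATP5J at 0.51 ± 0.17 (0.117) in edgeR's test. UQCRFS1 had the lowest p of the members below 0, at -0.39 ± 0.13 with an adjusted p of 0.127. For the 4 genes lower with CBX1 than in Control, the log2 difference between the readers was -0.04 (95% interval -0.26 to 0.18) for ATP5A1, 0.13 (-0.13 to 0.38) for NDUFS1, -0.27 (-0.51 to -0.02) for ATP5SL and -0.39 (-0.67 to -0.12) for UQCRFS1, none past the adjusted test. The CBX1 libraries lay all above CBX1_W42A for 4 members (5.63%) and all below for 0, against 10.3% and 11% of all genes.

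The members were ordered by the length of their coding sequence, a property the choice of members did not use, after the data had been seen. Across the 65 abundant members the log2 fold change in CBX1 against Control was the higher the shorter the coding sequence, with a Pearson r of -0.70 and a Spearman rho of -0.73. For CBX1_W42A against Control these were -0.33 and -0.28, and for CBX1 against CBX1_W42A -0.46 and -0.46. The points of a comparison share the same 6 libraries, so these are descriptions of those libraries. Across 9694 other protein-coding genes with more than 1000 counts, r was -0.02 for CBX1 against Control. With the length of the gene span in place of the coding length, r across the members in CBX1 against Control was -0.20, and with their mean CPM -0.38.

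The abundant members were split by coding length into 3 classes of about equal size. Those with 153 to 324 coding bases had a median log2 fold change of 0.37 in CBX1 against Control, with 20 of 21 above 0. The middle class, 333 to 537 bases, had 0.05 and 16 of 23 above 0, and the longest, 567 to 2181 bases, -0.13 and 5 of 21 above 0. Other protein-coding genes with more than 1000 counts in the same ranges had medians of -0.01 (195 genes), -0.06 (566) and -0.11 (5893). Cytosolic ribosomal protein genes, not split by length, had a median of 0.18 with 67 of 83 above 0. Mitochondrial ribosomal protein genes had -0.09, with 23 of 70 above 0. The members that rose were in the shortest and middle classes (COX7A2 and NDUFB6), and all 4 that fell were in the longest. With CBX1_W42A the medians of the 3 classes were 0.02, -0.01 and -0.15, against -0.01, -0.04 and -0.08 for the other protein-coding genes in the same ranges. When the trend with transcript length over all genes was removed, 0 members were higher with CBX1 than in Control and 15 were lower. That trend was fitted over genes of every type, noncoding ones included, so it need not be the trend of protein-coding genes. A trend over protein-coding genes alone was not tested.

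**Figure D3:**
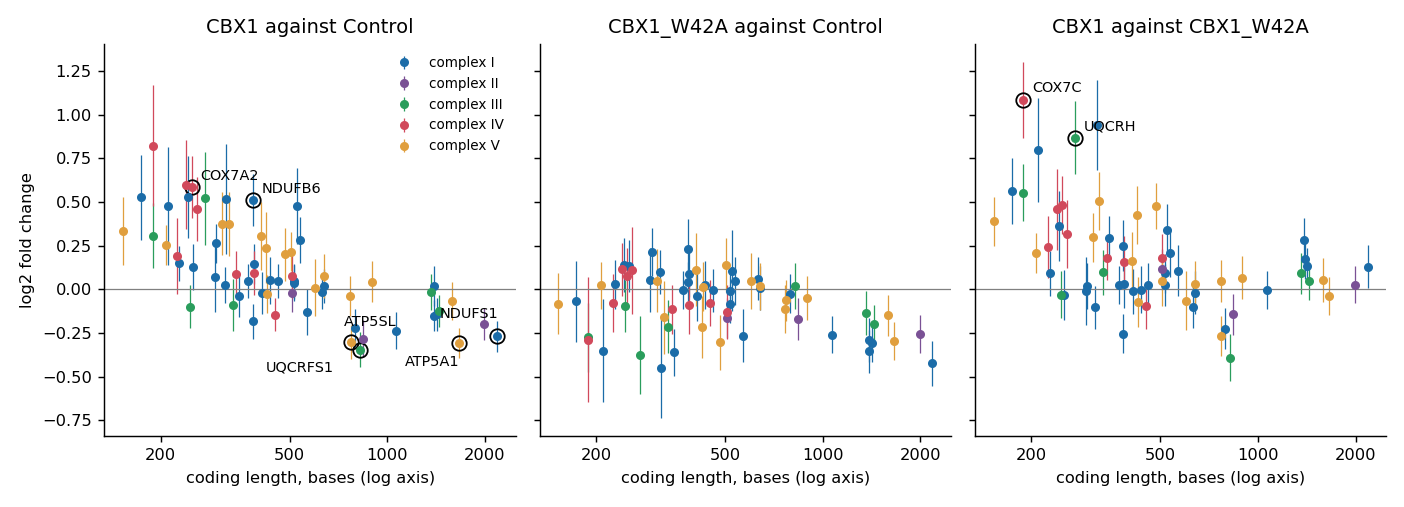
Log2 fold change ± SE of the 65 abundant members (vertical axis) against the length of the coding sequence in bases (log axis), one point per gene coloured by complex, in the 3 comparisons. Black circles mark the genes at an adjusted p below 0.05. In CBX1 against Control, 20 of the 21 shortest genes lie above 0 and 16 of the 21 longest lie below.

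The short members also varied most between replicates of the same group. Over the 65, the SD of log2 CPM within groups had a Pearson r of -0.59 with the log2 coding length, and over the 9694 other genes -0.16. COX7C had a within-group SD of 0.78 on the log2 scale, NDUFS5 0.73 and NDUFA1 0.71, whereas ATP5A1 had 0.11, SDHA 0.12 and NDUFV3 0.07. In Control, the highest library was 3.93 times the lowest for COX7C, and the median of that ratio over the 65 members was 1.32. NDUFA1, an accessory subunit of complex I, had 7.21, 19.8 and 11.9 CPM in Control, 28.8, 8.65 and 15.5 with CBX1, and 14.9, 8.42 and 6.67 with CBX1_W42A, so its groups overlapped throughout.

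The libraries of one group differed in how high the short members stood together. Relative to the mean of the 9 libraries, the median log2 deviation of the shortest class stood at -0.46, 0.37 and -0.13 for replicates 1, 2 and 3 of Control. With CBX1 it stood at 0.60, -0.09 and 0.20, and 0.17, -0.31 and -0.23 with CBX1_W42A. CBX1 replicate 1 and Control replicate 2 were thus the highest, and Control replicate 1 the lowest. Other protein-coding genes of the same length were at -0.12, 0.18 and -0.04 in Control, 0.01, -0.12 and 0.07 with CBX1, and 0.12, -0.14 and 0.05 with CBX1_W42A. With CBX1 these other genes stood highest in replicate 3, whereas in Control and CBX1_W42A their replicates ranked as for the short members. The share of all counts in cytosolic ribosomal protein genes was 3.01, 4.17 and 3.56% in Control, 4.63, 3.54 and 4.35% with CBX1 and 4.45, 3.24 and 3.68% with CBX1_W42A, which within each group is the order of the members' own share (0.586, 0.753 and 0.646%, then 0.776, 0.636 and 0.757%, then 0.727, 0.55 and 0.642%). Without Control replicate 2, 19 members were higher with CBX1 than in Control, and without Control replicate 1 or 3, or CBX1 replicate 1 or 3, none was. The part that this variation between libraries had in the differences between groups was not tested.

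**Figure D4:**
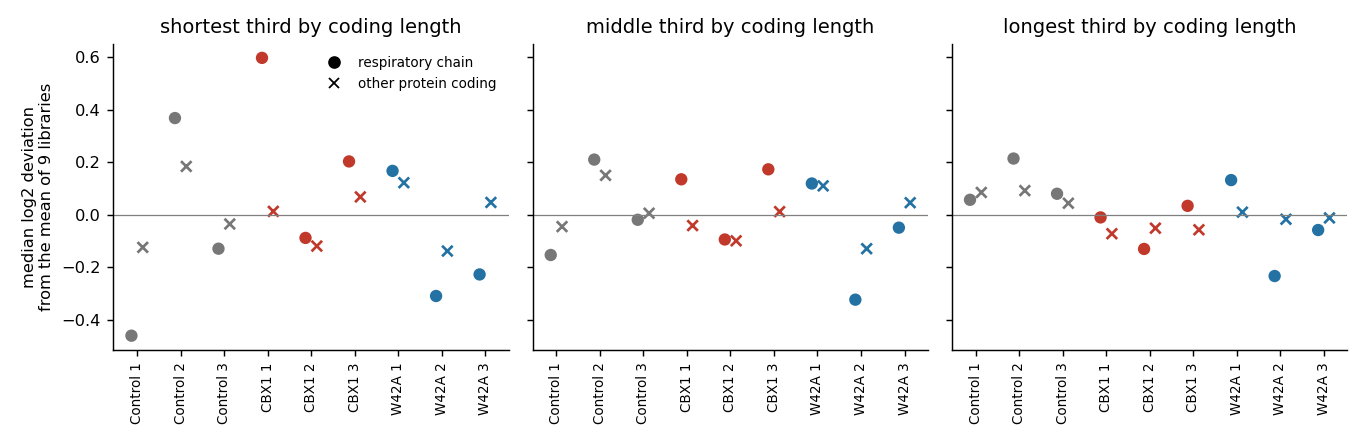
Median log2 deviation of each library from the mean of the 9 libraries (vertical axis), for respiratory chain genes (circles) and other protein-coding genes (crosses) in the same 3 ranges of coding length. The shortest respiratory chain genes spread from -0.46 in Control replicate 1 to 0.60 in CBX1 replicate 1, and the longest from -0.23 to 0.21.

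As a share of all counts, the 93 members together made up 0.662% ± 0.0843 (SD, n = 3) in Control, 0.723% ± 0.0759 with CBX1 and 0.64% ± 0.0886 with CBX1_W42A. The ranges of 0.586 to 0.753%, 0.636 to 0.776% and 0.55 to 0.727% overlapped. Complex IV was at 0.0926% ± 0.0279, 0.118% ± 0.017 and 0.0892% ± 0.0212, and complex II at 0.0687% ± 0.00449, 0.0638% ± 0.00092 and 0.0613% ± 0.00546. For complex II the CBX1 libraries all lay below the Control libraries, by a small margin.

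The 13 protein genes of the mitochondrial genome encode the remaining subunits of the same complexes. Of these, 8 were higher with CBX1 than in Control, 0 were lower, and all 13 were above 0, with a median log2 fold change of 0.32. Of all genes, 10.6% were higher and 9.46% lower in this comparison. MT-CO1, the catalytic subunit of complex IV, was at 0.40 ± 0.10 (SE, adjusted p = 0.0127) and MT-CYB, of complex III, at 0.32 ± 0.09 (adjusted p = 0.0155) in edgeR. With CBX1_W42A the median was 0.26 and 1 of 13 was higher, against 1.37% of all genes. Their summed share of all counts was 2.8% ± 0.122 in Control, 3.74% ± 0.0754 with CBX1 and 3.58% ± 0.0537 with CBX1_W42A.

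The 6 subunits and partners whose symbols differ from the naming pattern, NDUFAB1, CYC1, CYCS, ATPIF1, USMG5 and C14orf2, had log2 fold changes between -0.09 and 0.22 in CBX1 against Control, and none passed in any comparison. Of 49 assembly factors tested, which build the complexes without staying in them, 2 were higher and 7 lower with CBX1 than in Control, with a median of -0.08, against 10.6% of all genes higher and 9.46% lower. With CBX1_W42A 1 was lower, against 1.25% of all genes. Of 13 enzymes of the tricarboxylic acid cycle, which supplies the chain with electrons, 4 were lower with CBX1 and 0 higher, against the same 9.46% and 10.6% of all genes, and all 13 were below 0. SUCLG2, a subunit of succinyl-CoA ligase, was at -0.53 ± 0.11 (log2, SE, adjusted p = 0.00363), followed by FH at -0.42, IDH3A at -0.36 and IDH2 at -0.29. With CBX1_W42A 1 of the 13 was lower, against 1.25% of all genes, and 12 were below 0.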

How the data were processed

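Chrom-seq RNA was measured in 9 HEK293T libraries, 3 per group. According to the methods and the processing notes, the authors trimmed reads with fastp (0.23.1), aligned them to hg19 with HISAT2 (2.1.0) and counted them per gene with featureCounts (2.0.1) on GENCODE. They deposited raw counts for 57820 genes, with 0 entries naming no gene and 0 per-sample columns left unused here. The strand and intron settings of the counting are not given in the sources used here. Read pairs shared by 2 genes of one strand appear to be left out, which lowers nested genes to near 0.

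For each pair of groups, genes with a summed count above 18 in the 6 libraries were scaled with TMM factors. The test was edgeR's quasi-likelihood test (edgeR 4.0.16, limma 3.58.1, R 4.3.3), two-sided, with Benjamini-Hochberg adjustment over all genes tested. Changed means an adjusted p below 0.05. The study's thresholds, which add a log2 fold change of 0.75 or more, and the pairwise use of libraries follow its methods. The study applied these thresholds in DESeq2 (1.34.0), whereas here they were applied to edgeR's values unless DESeq2 is named. SE and intervals come from the same fit. Coding and transcript lengths came from a lifted GENCODE annotation on GRCh37, for 91 and 93 of the 93 members. Median deviations used log2 of CPM plus 0.5. Python (3.11.15), pandas (2.3.3), numpy (2.4.6) and matplotlib (3.10.9) were used.

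Genes named in the text were the SDH genes, in complexes I, III, IV and V the 2 members with the smallest p in each direction and comparison, the 2 members of each complex with the highest CPM, restricted isoforms and copies, every member past the study's thresholds, and members with a same-strand overlap. NDUFA1, NDUFA5, NDUFV3, ATP5S, NDUFA4 and the genes of promoter matches were chosen after their values were seen. The members and lists were chosen with earlier results of these data known. A gene of the tricarboxylic acid cycle list is not reported here and was left out of its counts. The alternatives were DESeq2 (1.42.0), RLE or upper-quartile factors, library size alone, no filter, filterByExpr, all 9 libraries in one fit, a replicate block and leaving out each library. Removal of the trend with transcript length (lowess, span 0.3, over tested genes of every type) was added after the data were seen. Counting precision follows from the totals of 8379542 to 11082852.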

Additional observations from a re-analysis of the deposited data

How the results depend on the processing

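The counts of called members moved with the processing, and the cause was not tested. For CBX1 against Control (2 higher, 4 lower), the number higher was 4 with the library size alone, 15 without a filter on low counts, 0 with the transcript length trend removed and 0 to 19 when 1 library was left out, the most without Control replicate 2. The number lower was 0 with upper-quartile factors, 0 with the library size alone, 2 with all 9 libraries in one fit, 15 with the length trend removed and 0 to 3 with 1 library left out. Past the study's thresholds the number higher was 1 without a filter and 0 to 6 with 1 library left out. For CBX1_W42A against Control (0 and 0), 2 were lower without a filter and 0 to 1 with 1 library left out. For CBX1 against CBX1_W42A (2 higher, 0 lower), the number higher was 1 with DESeq2, 4 with upper-quartile factors, 5 with the library size alone, 12 without a filter, 0 with all 9 libraries in one fit, 1 with the length trend removed and 0 to 10 with 1 library left out. Past the thresholds it was 0 with DESeq2, 4 without a filter, 0 with all 9 libraries in one fit, 1 with the length trend removed and 0 to 8 with 1 library left out. The number lower was 1 without a filter and 0 to 1 with 1 library left out.

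Same-numbered libraries did not deviate together throughout, with correlations from -0.228 to 0.046 between Control and CBX1, -0.121 to 0.145 between Control and CBX1_W42A and 0.085 to 0.174 between CBX1 and CBX1_W42A, so the numbers were not taken as pairs. With a replicate block, 2 members were higher (NDUFB6 and COX6B1) and 1 lower (UQCRFS1) in CBX1 against Control, so that COX7A2 (adjusted p = 0.0697), ATP5A1 (0.0658), ATP5SL (0.091) and NDUFS1 (0.104) lost their edgeR calls. In the same fit 1 was lower in CBX1_W42A against Control, and 12 were higher, 4 of them past the thresholds, and 1 lower in CBX1 against CBX1_W42A. The median log2 fold change of the members moved by less than the spread between libraries, between -0.126 and 0.135, -0.214 and 0.082, and 0.049 and 0.178 in the 3 comparisons, and its sign was not stable in either comparison with Control. Of 1708 fold changes of named genes under an alternative, 128 changed sign while called in neither fit and 0 while called in either. A call was gained in 73 and lost in 54. Only the few members that passed the edgeR test above had a call to lose, so the 54 are not to be read against the 1708. The 28 members with 114 counts or fewer gave few or no values to compare. Of these, 17 had under 10% of their span free of other genes on the same strand, where the counts appear to leave out shared read pairs, and COX4I2, COX6A2 and COX7B2 were at 0 without such an overlap.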

Other observations

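Nuclear genes that serve mitochondria outside the chain can be set beside these values. Of 70 mitochondrial ribosomal protein genes tested, 9 were lower and 0 higher with CBX1 than in Control, against 9.46% and 10.6% of all genes, with a median log2 fold change of -0.09 and 23 of 70 above 0. With CBX1_W42A, 1 was lower, against 1.25% of all genes, and the median was -0.09. Between the readers 3 were higher and 1 lower with CBX1, against 1.32% and 0.925% of all genes. Of 83 cytosolic ribosomal protein genes tested, 3 were higher and 1 lower with CBX1 than in Control, against 10.6% and 9.46% of all genes, with a median of 0.18 and 67 of 83 above 0. Between the readers 8 were higher with CBX1 and 0 lower, against 1.32% and 0.925% of all genes, with a median of 0.11.

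Of 13 factors of mitochondrial transcription and biogenesis, none passed in any comparison. TFAM, which packages mitochondrial DNA and takes part in its transcription, was at 172 ± 5.89 CPM (SD, n = 3) in Control. It was at 155 ± 4.86 with CBX1 and 174 ± 16.1 with CBX1_W42A. NRF1, the factor whose motif was searched in the promoters, was at 41.5 ± 1.17, 43.0 ± 2.5 and 45.9 ± 1.92 CPM, and GABPA, an ETS factor, at 92.6 ± 8.72, 83.8 ± 4.15 and 81.4 ± 4.2.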
